A study of Mus musculus with 16 samples.

Results

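The calcium/calmodulin-dependent protein kinase (CaMK) genes were examined in the gastrocnemius, a muscle of the calf, in WT mice and in mice with 1 functional Eif6 allele. The members were 9 genes, of 34650 gene names on the array: the upstream kinases Camkk1 and Camkk2, the kinases Camk1, Camk1d and Camk4 that they activate, and the 4 CaMKII subunits Camk2a, Camk2b, Camk2d and Camk2g. The family was chosen by the measured polysome loading of Camk4, which differed between genotypes in these same arrays. The whole-muscle, polysome and loading values of Camk4 are therefore given as a description, with no test. Members were all non-control probes named for one of the 9 genes, 18 of 55681 probe names, on 27 of 59305 non-control spots.

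The 6 groups combined a genotype and a kind of RNA. WT (Eif6+/+) and Het (Eif6+/-) animals were male C57BL6 littermates, 3 of each, aged 8 to 16 weeks and with no treatment given in the labels. Eif6 encodes a factor that binds the large ribosomal subunit, and the Het allele is not limited to muscle fibres by any driver named in the sources used here. Each mouse gave total RNA of the whole muscle and, from a sucrose gradient, pooled polysome RNA, which holds transcripts carrying several ribosomes. RNA of the monosome fraction, with transcripts carrying a single ribosome, was available for WT mice 1 and 2 and Het mice 1 and 3. The 16 samples were each hybridised in 1 colour to an array. Signals are given as log2 of the processed spot signal after quantile normalization, and a difference of 1 on this scale is a 2-fold difference. In bulk muscle, fewer cells of a type and less RNA per cell cannot be told apart.

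CaMK enzymes read calcium through calmodulin. Calcium-loaded calmodulin frees the kinase domain from its own inhibitory segment, and CaMKI and CaMKIV in addition need phosphorylation by a CaMK kinase, whereas CaMKII forms large rings whose subunits phosphorylate each other and stay active after calcium has fallen. In skeletal muscle CaMKII is the prominent form and responds to the calcium pulses of contraction, while CaMKIV is best known from neurons and T lymphocytes.

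The array read each gene through probes of 60 bases, and probes at different positions of 1 transcript could differ in signal. The sequences of 5 probes are shown: those of Camk2b and Camk2d are set against downstream probes below, those of Camk1d and Camkk2 were dim while downstream probes of the same genes were measured, and that of Camk1 is the only probe of its gene. They are printed 5′ to 3′ in the sense direction with no position in capitals. Each is free of stop codons in at least 1 of 3 forward frames. The downstream probes of Camk2b at 3944 and Camk2d at 4011 share this, so it does not set the shown probes apart.
Camk1, transcript position 866: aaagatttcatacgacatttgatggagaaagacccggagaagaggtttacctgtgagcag
Camk1d, transcript position 1419: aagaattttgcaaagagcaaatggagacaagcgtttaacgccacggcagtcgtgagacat
Camk2b, transcript position 1554: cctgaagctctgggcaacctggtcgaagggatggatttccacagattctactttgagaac
Camk2d, transcript position 1941: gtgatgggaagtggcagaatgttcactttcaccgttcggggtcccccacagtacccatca
Camkk2, transcript position 1670: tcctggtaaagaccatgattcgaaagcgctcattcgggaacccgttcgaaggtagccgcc
On mouse genome build mm9 these probes lie at chr6:113286369-113286428, chr2:5222627-5224363, chr11:5872636-5872695, chr3:126543223-126543282 and chr5:123187482-123187541, the Camk2d probe on the plus strand and the others on the minus strand. The Camk1d probe covers more of the genome than its own length, so that its bases come from separate exons.

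The arrays differed in overall brightness, taken as the 75th percentile of an array's processed signals, by 11.1-fold over the 12 whole-muscle and polysome arrays. In whole muscle all Het arrays were dimmer than all WT arrays, with 33.0, 13.5 and 19.1 scanner units against 150, 57.1 and 42.3. The polysome arrays had 73.6, 106 and 63.1 units in Het and 54.7, 24.1 and 66.1 in WT. The ratio of polysome to whole-muscle brightness was therefore higher in every Het mouse than in every WT mouse. The part of brightness in the results was not tested beyond the fits with brightness as a term. The polysome and monosome arrays of WT mouse 2 stood apart in the balance of upstream and downstream probes described further on, and results that rest on them are given with and without that mouse. The targeted gene was lower in the Het arrays of every kind, without overlap. Its probe A_52_P85864 read 8.51 to 8.70 against 9.26 to 9.95 in whole muscle (difference -0.92, limma adjusted p = 0.360), and its difference reached -1.31 in polysomes (adjusted p = 0.193) and -1.82 in monosomes (adjusted p = 0.045). Its other probe, A_55_P1989013, had differences of -1.07, -1.19 and -1.86, none of which passed (limma adjusted p = 0.360, 0.208 and 0.0722). All 10 markers of muscle fibres were well above background on all 16 arrays, against 2 of 8 T cell markers, with Cd3d, Cd3g, Cd8a and Lck on none, and 3 of 8 Schwann cell and nerve markers, with Nefl on none. The summed T cell signal ranged from 9.43 to 9.52 in WT and 8.69 to 9.54 in Het whole muscle, 8.59 to 10.27 and 8.55 to 9.71 in polysomes, and 9.21 to 11.02 and 8.76 to 9.83 in monosomes. The summed nerve signal lay between 10.71 and 11.78 in all 6 groups.

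Each CaMKII gene, Camkk2 and Camk4 had a probe well above background on all 16 arrays, whereas no probe of Camk1, Camk1d or Camkk1 did. The other Camkk2 probe reached that call on 3 of 16 arrays. Of the 18 probes, 8 were called well above background 16 times out of 16, and they belonged to Camkk2, Camk2a (both probes), Camk2b, Camk2d (at positions 1941 and 2124), Camk2g and Camk4. A further 4 were on none, namely the Camk1d probe at position 1419, 1 Camk2d probe (A_55_P1955172, transcript position 1899 of its own accession) and the Camk4 probes at positions 2612 and 12271. A probe entered the tests when some group had it well above background throughout, which left 12 of the 18 (66.7%, against 35.6% of all probes) and 8 of the 9 genes. The plot of member levels shows the tested probes on every array.

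**Figure D1:**
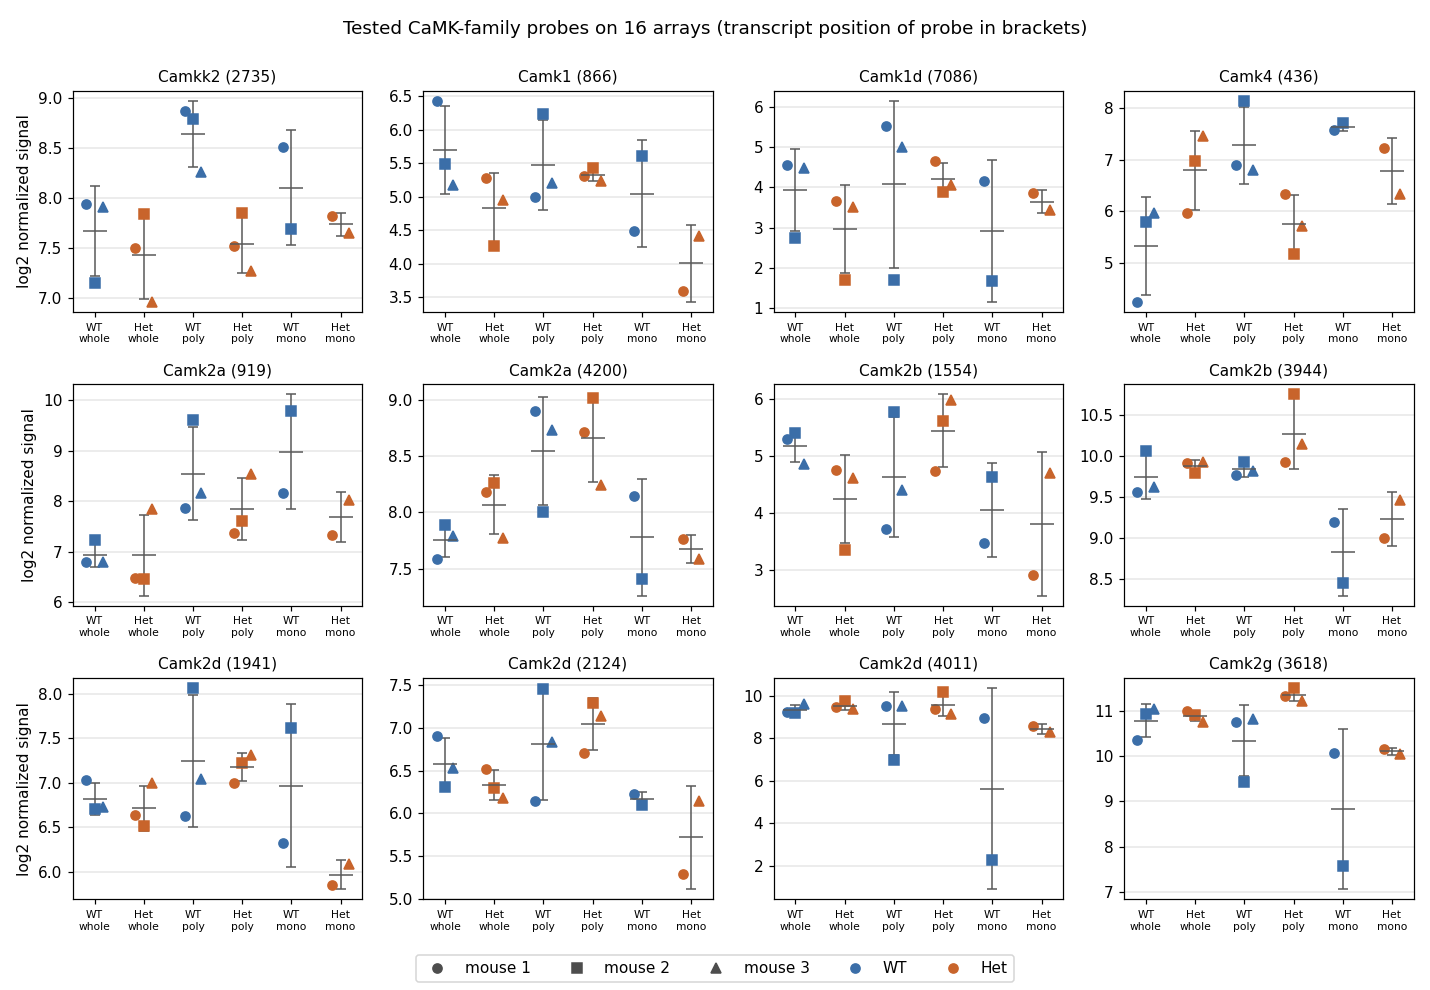
Log2 normalized signal (y axis) of the 12 tested probes in the 6 groups (x axis), with a point for each array, shaped by mouse and coloured by genotype, and the group mean ± SD as a grey bar. The monosome values were normalized over 16 arrays and the others over 12. The Camk2d probe at position 4011 sat at 2.27, not well above background, on the array of WT mouse 2 monosomes, against 8.28 to 8.99 on the other 3 monosome arrays.

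No member passed the adjusted threshold between genotypes, in whole muscle, polysomes, loading or monosomes. In whole muscle, 0 of the 11 tested probes other than Camk4 had an adjusted p under 0.05 (limma, Benjamini-Hochberg over 19806 probes), against 0.0101% of all tested probes. None of the 11 had an unadjusted p under 0.05 either (all probes 8.46%). The study's threshold for polysome RNA, an unadjusted p under 0.05 with a log2 difference beyond 1, is applied here to the other comparisons too. In whole muscle 0 of the 11 met it, against 5.63% of all probes. Of the 11, 8 were well above background on all 12 whole-muscle and polysome arrays, and group medians are given over these 8 beside the 11475 probes of the same kind. In whole muscle the differences of the 8, Het minus WT, ran from -0.25 to 0.32 with a median of 0.04, beside a median of 0.02 over all such probes. In polysomes the Camk1d value (0.12) is a description, since this probe passed the filter on dim probes through the Het polysome arrays alone. Of the rest, 0 passed after adjustment (all probes 0%). Among them 2 (Camkk2 and Camk2g) had an unadjusted p under 0.05 (all probes 15.2%), and both met the study's threshold (all probes 5.74%). The count at the study's threshold was 0 with normexp correction (Camkk2 -0.83, Camk2g 0.96). It was 1 or 2 under the other alternatives run, fits within a slide aside, but the probes counted were not always these. Without WT mouse 2 Camk2g was 0.56. Within slides 1 and 2 Camkk2 was -1.31 and -0.71, and Camk2g 1.23 and 0.54. The median in polysomes was 0.17, beside 0.04. Markers of 2 other cell types also separated the genotypes in polysomes, where the summed blood signal was 14.29 to 15.31 in WT and 13.26 to 13.71 in Het, and the summed fibroblast signal 15.52 to 15.69 and 15.04 to 15.15. Their part in the polysome differences of Camk4, Camkk2 and Camk2g was not tested.

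Loading is the log2 ratio of polysome to whole-muscle signal within a mouse. With Camk4, Camk1d and Camk2b at 1554 set aside, 0 probes had a loading difference that passed after adjustment (all probes 0%). The Camk2b probe at position 1554 had passed the filter on dim probes through WT whole muscle and Het polysomes alone, and the Camk1d probe through Het polysomes alone, which favours a higher loading in Het, and their loading values are therefore a description. Of the other probes 0 met the study's threshold (all probes 13.9%) or an unadjusted p under 0.05 (all probes 16.9%). The median loading difference of the 8 probes was 0.17, beside 0.07. In monosomes, 0 of the 12 tested probes, Camk4 included, passed after adjustment (all probes 0.499%), and 0 met the study's threshold (all probes 28.6%) or an unadjusted p under 0.05 (all probes 33%). The summed signals of blood (14.18 to 15.62 in WT and 13.82 to 14.07 in Het), macrophage (10.53 to 11.23 and 9.75 to 9.82), adipocyte (12.02 to 12.70 and 11.93 to 11.96) and muscle fibre markers (18.83 to 18.97 and 19.19 to 19.22) separated the genotypes there, and their part in the monosome differences was not tested. With 2 monosome arrays a genotype, an exact permutation test cannot go below 0.333, and with 3 mice it cannot go below 0.1. Leaving out WT mouse 1 rests the WT monosome group on mouse 2 alone and turned the 0 into 5 calls.

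Polysome RNA held more signal than whole-muscle RNA in WT muscle at the Camk2a probe at position 919 and at the Camkk2 probe at 2735. These 2 of 11 probes passed the adjusted threshold, a share near that of all probes (21%), and 3 of 11 had an unadjusted p under 0.05 (all probes 38.1%). The Camkk2 call was lost with no filter on dim probes, with slide or brightness as a term, within either slide, with a replicate block or no pairing, by the methods' t-test and without any one mouse. The Camk2a call was lost within either slide, with brightness as a term, with no pairing, by the methods' t-test and without WT mouse 3. In Het muscle, with Camk1d and Camk2b at 1554 set aside, 0 of the probes passed (limma, all probes 7.33%, lowest adjusted p = 0.0923). Camk1d and Camk2b at 1554 were well above background on 0 and 1 of 3 Het whole-muscle arrays and on 3 of 3 Het polysome arrays, and their Het ratios are a description. Camk1d passed the filter on dim probes through the Het polysome arrays alone, and Camk2b at 1554 through these and WT whole muscle. Of the others, 1 probe, Camk2a at 919, had an unadjusted p under 0.05 in Het (all probes 29.2%). The median ratio of the 8 probes was 0.33 in WT and 0.46 in Het, beside 0.06 and 0.07. Summed marker signals that did not overlap between WT whole muscle and WT polysomes were those of fibroblasts (14.43 to 14.65 and 15.52 to 15.69), adipocytes (11.78 to 12.74 and 13.03 to 14.43) and blood (13.23 to 13.87 and 14.29 to 15.31), all higher in polysomes. In Het those of fibroblasts (13.945 to 14.73 and 15.04 to 15.15) and adipocytes (11.88 to 12.87 and 13.78 to 13.92) did not overlap, again higher in polysomes. The part of these markers in the WT and Het ratios, those of Camk2a and Camkk2 included, was not tested.

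Among the upstream kinases, Camkk2, which phosphorylates CaMKI and CaMKIV and also AMP-activated kinase, was measured at its downstream probe (A_55_P2329923, position 2735). It read 7.94, 7.14 and 7.91 in WT and 7.50, 7.84 and 6.96 in Het whole muscle, 8.87, 8.79 and 8.26 in WT and 7.52, 7.85 and 7.26 in Het polysomes, and 8.51 and 7.69 in WT and 7.82 and 7.65 in Het monosomes. The genotypes overlapped in whole muscle and did not overlap in polysomes, where every WT mouse was above every Het mouse.

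The polysome difference of Camkk2 was -1.10 ± 0.31 (SE, 2.14-fold lower, limma unadjusted p = 0.0049), with an adjusted p of 0.236 and an exact permutation p of 0.1, the smallest that 3 against 3 mice allow. Its adjusted p lay between 0.106 and 1.0 over the alternatives run. Polysome over whole muscle was 0.93, 1.65 and 0.36 in the WT mice and 0.02, 0.01 and 0.31 in the Het mice. The WT ratio of 0.98 ± 0.28 (SE) passed the threshold (limma adjusted p = 0.0461) and the Het ratio was 0.11 (adjusted p = 0.818). The difference between these ratios, the loading difference, was -0.87 ± 0.39 (SE, limma adjusted p = 0.321), and it was -0.13 once array brightness entered the fit. Without WT mouse 2 the WT ratio was 0.64 and the loading difference -0.53. The adjusted p of the WT ratio was 0.0831 with slide as a term and 0.0716 to 0.124 with each of the 6 mice left out.

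The other Camkk2 probe (A_55_P2125684, position 1670) was well above background on 2 of 3 WT and 1 of 3 Het polysome arrays and on no whole-muscle or monosome array. It read 3.10, 3.02 and 2.16 in WT whole muscle and 3.69, 5.21 and 3.98 in WT polysomes, where WT mouse 2 was the highest. In Het it read 1.83, 4.92 and 3.74 in whole muscle and 3.64, 3.61 and 2.56 in polysomes. Camkk1, the second upstream kinase, was well above background on 5 of 16 arrays (1 WT whole muscle, 2 WT polysome and 2 Het polysome) and was not tested. Its group means lay between 2.86 and 4.10.

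Camk1, an activation target of the CaMK kinases, was read by a single probe present in 10 spots. Its signal was 6.44, 5.50 and 5.17 in WT and 5.28, 4.26 and 4.95 in Het whole muscle, 4.99, 6.24 and 5.21 in WT and 5.31, 5.43 and 5.24 in Het polysomes, and 4.48 and 5.61 in WT and 3.60 and 4.41 in Het monosomes. The genotypes overlapped in whole muscle and polysomes, and in monosomes both Het arrays were below both WT arrays. The whole-muscle difference was -0.87 ± 0.41 (SE, limma adjusted p = 0.603) and the monosome difference -1.04 ± 0.54 (SE, limma adjusted p = 0.186), or -0.49 without WT mouse 2. The whole-muscle value was -0.50 without WT mouse 1, -0.44 with brightness as a term, -0.34 with normexp correction and -0.36 in the authors' table, and the last 2 gave -0.34 and -0.42 in monosomes. Only 1 of 3 Het whole-muscle arrays and 1 of 2 Het monosome arrays had Camk1 well above background, against all WT arrays.

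Camk1d, a close relative of Camk1, was seen at its far downstream probe alone (A_55_P1955147, position 7086), on 8 of 16 arrays. Its values ran from 1.70 to 4.57 in whole muscle and from 1.70 to 5.53 in polysomes, and the lowest polysome value was that of WT mouse 2. Het mice had a ratio of polysome to whole muscle of 1.0, 2.17 and 0.53, with a mean of 1.23 ± 0.45 (SE). In WT mice the ratios were 0.96, -1.05 and 0.52. No Het whole-muscle array had this probe well above background, and it passed the filter on dim probes through the Het polysome arrays alone, so the Het ratio is given as a description. That ratio was 0.089 with normexp correction, 0.21 in the authors' table, 0.54 with 75th percentile scaling, 0.68 with brightness as a term and 0.78 without Het mouse 2.

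Camk4, a nuclear kinase that phosphorylates transcription factors such as CREB, lies on chromosome 18, and its 3 probes (mm9 33099131 to 33099190, 33345703 to 33345763 and 33355362 to 33355421, plus strand) start at transcript positions 436, 2612 and 12271. Only the first was above background, on all 16 arrays. It read 4.25, 5.79 and 5.98 in WT and 5.96, 6.98 and 7.45 in Het whole muscle, where the lowest Het array was just below the highest WT array. In polysomes it read 6.89, 8.14 and 6.80 in WT and 6.33, 5.18 and 5.73 in Het, with every WT mouse above every Het mouse. The ratios of polysome to whole muscle were thus 2.64, 2.35 and 0.82 in WT and 0.37, -1.80 and -1.73 in Het.

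The loading difference that chose the family was -2.99 (7.93-fold lower in Het), made of a whole-muscle difference of 1.46 and a polysome difference of -1.53. In the monosome arrays, which had no part in the choice, Camk4 read 7.57 and 7.71 in WT and 7.23 and 6.33 in Het. Both Het arrays were below both WT arrays, with a difference of -0.86 ± 0.66 (SE), which did not pass the test (limma adjusted p = 0.346, exact permutation p = 0.333). It was -0.80 without WT mouse 2, -1.29 without Het mouse 1 and -0.42 without Het mouse 3. Within slides 1 and 2, each with 1 array against 1, it was -0.35 and -1.37, with brightness as a term -0.44 and with normexp correction -0.54.

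**Figure D2:**
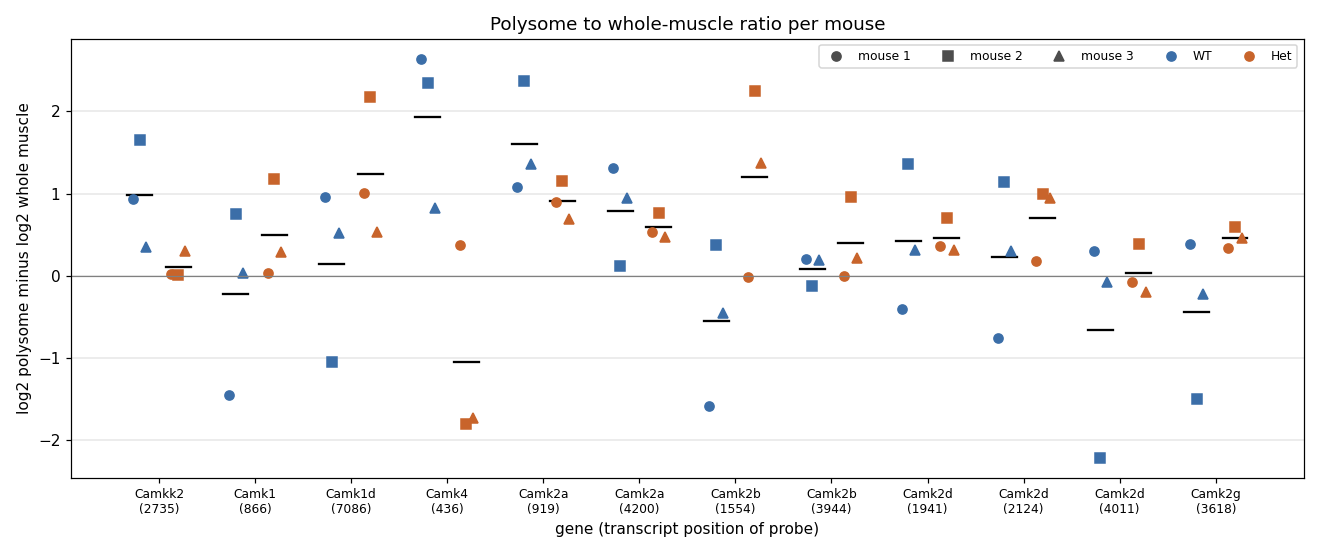
Log2 polysome minus log2 whole-muscle signal (y axis) of each mouse for the 12 tested probes (x axis), with points shaped by mouse and coloured by genotype and the group mean as a black line. Camk4 ratios lay between 0.82 and 2.64 in WT and between -1.80 and 0.37 in Het mice, and Camkk2 ratios between 0.36 and 1.65 and between 0.01 and 0.31.

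Before normalization the Camk4 signal varied less between arrays than that of any other tested member. In scanner units it was 57.9, 66.2 and 55.8 in WT and 44.0, 35.0 and 67.7 in Het whole muscle, where the genotypes overlapped. In polysomes it was 139, 133 and 154 in WT and 128, 78.2 and 70.5 in Het, without overlap. Its highest value over the 12 arrays was 4.40 times its lowest, a smaller spread than that of 99.0% of the 19806 tested probes, whose median spread was 14.3-fold. The other 11 tested member probes spread 14.9-fold to 45.9-fold.

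The normalized Camk4 level tended to be lower on brighter arrays (Pearson r = -0.77, Spearman rho = -0.75 with log2 brightness over 12 arrays of 6 mice, given as a description), and for the other tested members r lay between -0.03 and 0.65. With brightness as a term in the fit, the loading difference of Camk4 was -0.60, the polysome difference -0.73, and the whole-muscle difference turned to -0.27. With normexp background correction loading was -1.64, and in the authors' own normalized table -1.70. Within slides 1 and 2 it was -2.42 and -2.28, values that compare different mice, since the polysome and whole-muscle arrays of every mouse lay on different slides. Leaving out each mouse in turn gave -3.65 to -2.60.

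**Figure D3:**
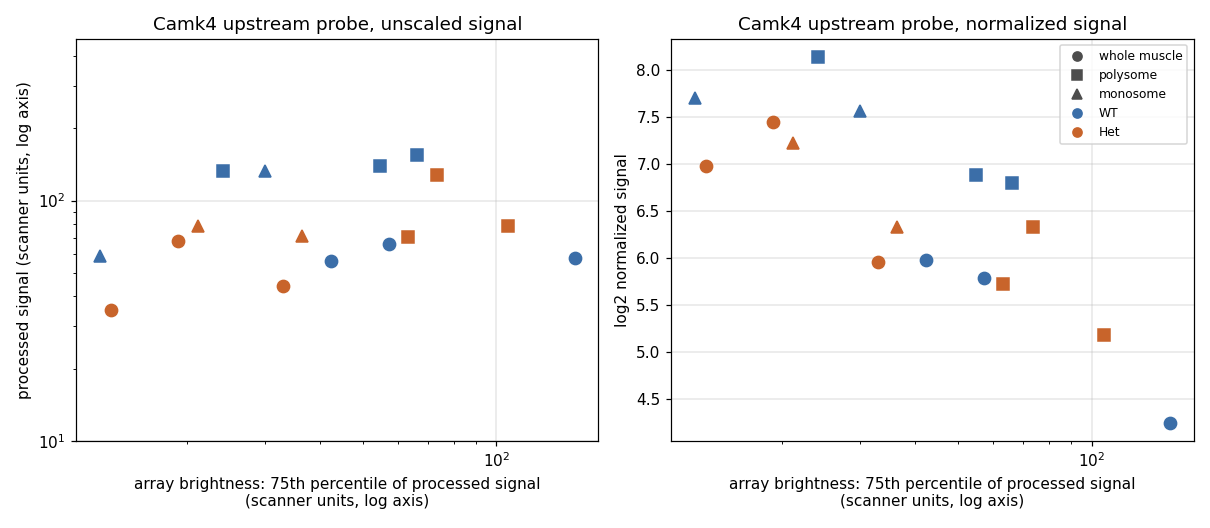
Signal of the Camk4 probe at position 436 against array brightness (x axes, scanner units, log scale), unscaled on a log axis at the left and as log2 normalized signal at the right, with a point for each of 16 arrays coloured by genotype and shaped by RNA kind, and with monosomes normalized over 16 arrays and the others over 12. The unscaled whole-muscle points of both genotypes share the range 35.0 to 67.7, while the lowest normalized point, 4.25, is that of the brightest array.

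Camk2a, the CaMKII alpha subunit, best known from brain, also lies on chromosome 18 and was read by probes at positions 919 (A_55_P2149209) and 4200 (A_55_P2149215) of its transcript. The upstream probe read 6.80, 7.24 and 6.80 in WT and 6.48, 6.46 and 7.85 in Het whole muscle, and 7.88, 9.60 and 8.16 in WT and 7.38, 7.61 and 8.54 in Het polysomes. Every mouse had more signal in polysomes than in whole muscle, and the genotypes overlapped in both. The WT ratio was 1.60 ± 0.29 (SE, 3.04-fold, limma adjusted p = 0.0151), the Het ratio 0.91 ± 0.29 (SE, limma adjusted p = 0.0923), and the difference between them -0.69 (limma adjusted p = 0.426). Without WT mouse 2 the WT ratio was 1.23 (adjusted p 0.027) and the difference -0.31, and without WT mouse 3 it missed the threshold (limma adjusted p = 0.0709).

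The downstream Camk2a probe had polysome to whole-muscle ratios of 1.31, 0.12 and 0.95 in WT and 0.54, 0.76 and 0.47 in Het. These were above 0 in all 6 mice, with means of 0.79 ± 0.27 (SE, limma adjusted p = 0.0749) and 0.59 ± 0.27 (SE, limma adjusted p = 0.194). In monosomes the upstream probe read 8.17 and 9.79 in WT and 7.34 and 8.03 in Het, with both Het arrays below both WT arrays (-1.29 ± 0.68, SE, limma adjusted p = 0.190), and the difference was -0.49 without WT mouse 2.

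Camk2b, the beta subunit, showed small differences at its downstream probe (A_55_P2109377, position 3944). It read 9.56, 10.06 and 9.62 in WT and 9.92, 9.79 and 9.92 in Het whole muscle, and 9.76, 9.93 and 9.81 in WT and 9.92, 10.75 and 10.14 in Het polysomes. The groups overlapped, and no difference exceeded 0.44 in either comparison (lowest limma adjusted p = 0.398). The upstream probe (A_55_P2150578, position 1554) was dimmer on each array and more variable. It read 5.30, 5.40 and 4.86 in WT and 4.77, 3.36 and 4.61 in Het whole muscle, without overlap (-0.94 ± 0.54, SE, limma adjusted p = 0.679), and 3.72, 5.78 and 4.41 in WT and 4.75, 5.61 and 5.98 in Het polysomes. The whole-muscle difference was -0.50 without Het mouse 2, -0.29 with normexp correction and -0.26 in the authors' table.

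The ratios of that upstream Camk2b probe were -1.58, 0.38 and -0.45 in WT and -0.02, 2.25 and 1.37 in Het mice, which overlapped. Its loading difference was 1.75 ± 0.70 (SE), in the direction that the filter on dim probes favoured. It was 0.57 with normexp correction, 0.31 with brightness as a term and 1.23 without Het mouse 2, whose whole-muscle array was the dimmest of the 12. The probe was well above background on 1 of 3 Het whole-muscle and 2 of 3 WT polysome arrays, and on 3 of 3 in the other 2 groups.

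Camk2d, the delta subunit, was read by 3 tested probes at positions 1941, 2124 and 4011. At position 1941 (A_55_P1978830) it read 7.03, 6.70 and 6.72 in WT and 6.63, 6.51 and 6.99 in Het whole muscle, and 6.62, 8.06 and 7.04 in WT and 7.0, 7.22 and 7.31 in Het polysomes. At position 4011 (A_52_P428745) it read 9.25, 9.19 and 9.63 in WT and 9.47, 9.78 and 9.37 in Het whole muscle, and 9.55, 6.98 and 9.55 in WT and 9.39, 10.17 and 9.17 in Het polysomes. WT mouse 2 had the highest polysome value of all 6 mice at the upstream probe and the lowest at the downstream probe.

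The 3 Camk2d probes had whole-muscle differences of -0.25 to 0.18. Their polysome differences, in order of position, were -0.07, 0.23 and 0.88, and without WT mouse 2 they were 0.35, 0.56 and 0.025. None passed the threshold in whole muscle or polysomes (lowest limma adjusted p = 0.457). The loading differences were 0.04, 0.48 and 0.70, and without WT mouse 2 they were 0.51, 0.94 and -0.074, so that the direction turned at position 4011. In monosomes the upstream probe read 6.32 and 7.61 in WT and 5.85 and 6.08 in Het (-1.0 ± 0.47, SE, limma adjusted p = 0.153). The downstream probe read 8.99 and 2.27 in WT and 8.60 and 8.28 in Het (2.81 ± 1.48, SE, limma adjusted p = 0.189). Its value of 2.27 was not well above background, so the size of that difference rests on the floor. Without WT mouse 2 the upstream difference was -0.36 and the downstream difference turned to -0.55.

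Camk2g, the gamma subunit, had 1 probe (A_55_P2020341, mm9 chr14:21554122-21554181, minus strand, transcript position 3618). It read 10.36, 10.93 and 11.04 in WT and 10.98, 10.90 and 10.75 in Het whole muscle, and 10.75, 9.43 and 10.82 in WT and 11.32, 11.50 and 11.22 in Het polysomes. The polysome groups did not overlap, with every Het mouse above every WT mouse and WT mouse 2 below the rest. The difference was 1.01 ± 0.35 (SE, 2.01-fold, limma unadjusted p = 0.0142, adjusted p = 0.270), and without WT mouse 2 it was 0.56. In monosomes the probe read 10.08 and 7.58 in WT and 10.16 and 10.04 in Het, where WT mouse 2 again was the lowest.

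The position of a probe on its transcript mattered on the polysome and monosome arrays of WT mouse 2. Over 233 transcripts with probes at least 500 bases apart, the median of upstream minus downstream signal was between -1.71 and -1.18 on 14 arrays, but -0.34 on the WT polysome 2 array and 0.24 on the WT monosome 2 array. Camk2d showed it most plainly. The probe at 1941 minus the probe at 4011 was -3.27 to -1.86 on the 14 arrays and 1.08 and 5.35 on those of WT mouse 2. For the probe at 2124 the last values were 0.47 and 3.84. The probe at 4011 was not well above background on the WT monosome 2 array, so 5.35 and 3.84 rest on a value at the floor.

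Camk2a followed the same pattern, with 1.60 and 2.37 on the WT mouse 2 arrays and -1.80 to 0.45 elsewhere. Camk2b had -4.15 and -3.82 there, just above the -6.44 to -4.16 of the other arrays. The whole-muscle array of WT mouse 2 did not share the pattern (-0.65 for Camk2a and -2.49 for Camk2d). The part of this pattern in the polysome differences of Camk2g and Camk2d was not tested. The values given above without WT mouse 2 leave out everything about that mouse. Camk2a in Het mouse 3 stood apart in another way, since its difference was 0.08 in whole muscle and 0.30 in polysomes, against -1.80 to -0.65 and, WT mouse 2 aside, -1.41 to -0.57 in the other mice.

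**Figure D4:**
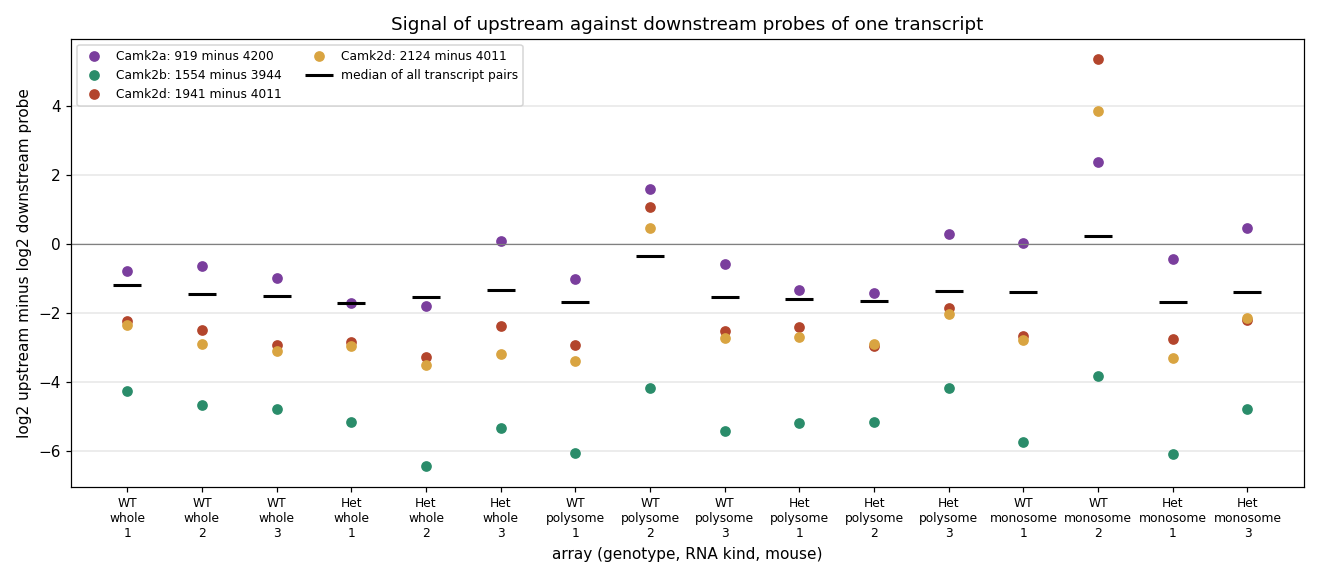
Log2 signal of an upstream probe minus that of the farthest downstream tested probe of the same transcript (y axis) on each of 16 arrays (x axis), for Camk2a, Camk2b and Camk2d, with the median of 233 transcripts as black bars. On the polysome and monosome arrays of WT mouse 2 the Camk2d pairs were above 0 (0.47 to 5.35), and on all other arrays they were below -1.8. On the WT monosome 2 array the downstream Camk2d probe was not well above background.

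None of the tested genes around the kinases passed the adjusted threshold between genotypes in whole muscle, polysomes or loading. Of 36 listed pathway genes (calmodulin, CaMK inhibitors and phosphatases, calcineurin, NFAT, MEF2, class II deacetylases, CREB coactivators and related targets), all were on the array and 31 were tested. The count was 0 of 31 in either direction in each (limma), with 1, 2 and 1 at an unadjusted p under 0.05 (all probes 8.46%, 15.2% and 16.9%). In whole muscle the 4 widest differences were those of Mef2c, a muscle transcription factor (-1.10), Crtc1, a CREB coactivator (-0.92), Camk2n1, a CaMKII inhibitor (-0.66), and Nfatc4 (-0.60), with limma adjusted p of 0.515 to 0.831. In polysomes they were the 3 catalytic calcineurin subunits Ppp3ca (1.46), Ppp3cb (1.31) and Ppp3cc (1.11) and the transcription factor Atf1 (1.07), with limma adjusted p of 0.270 to 0.437. Without WT mouse 2 these 4 polysome differences were 0.22, 0.64, 0.37 and 0.07.

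In loading the widest were Ppp3ca (1.27), Ppp3cb (1.21), Mef2c (1.1) and the calcineurin inhibitor Rcan1 (0.97), with limma adjusted p of 0.238 to 0.544, and without WT mouse 2 they were -0.05, 0.45, 1.75 and 1.04. Polysome over whole muscle gave 1 call of 31 in WT (all probes 21%), where Mef2c fell by 1.68 on the log2 scale (SE 0.44, limma adjusted p = 0.0379), and by the same test without WT mouse 2 the value was -2.33. In Het 0 of 31 passed (limma, all probes 7.33%), with 8 at an unadjusted p under 0.05 (all probes 29.2%), and the widest ratios were those of Crtc1 (1.13), Camk2n1 (0.91), the CaMK phosphatase gene Ppm1f (0.84) and Camk2n2 (-0.81). Without WT mouse 2 the Het count was 1, with Ppm1f at 0.84 (limma adjusted p = 0.0459, against 0.0565 with all mice). The median difference of the list was -0.01 in whole muscle, 0.17 in polysomes and 0.28 in loading, beside -0.03, 0.05 and 0.17 over all probes. Without WT mouse 2 these medians were 0.04, 0.23 and 0.09, beside -0.05, 0.0044 and 0.09.

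Across the 16 arrays of 6 mice, the probes whose normalized levels ran most like Camk4 were 3 probes of loci on chromosomes 2, X and 8 that the array design names by coordinates alone (Pearson r = 0.973, 0.970 and 0.967, a description over arrays that share mice). For the other members the most similar gene was Foxp1 for Camkk2 (r = 0.916), Sec31a for Camk1 (r = 0.934), Spred1 for Camk1d (r = 0.946), Cc2d1b for Camk2a (r = 0.912), Dcaf8 for Camk2b (r = 0.904), Sept7 for Camk2d (r = 0.993) and Eif3j1 for Camk2g (r = 0.987). The last 2 rest on downstream probes whose lowest values were those of WT monosome 2.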

How the data were processed

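Total muscle RNA, polysome RNA and monosome RNA of 3 WT and 3 Het mice were profiled on 16 single-colour Agilent arrays (design 028005). Per the file headers, the deposited scanner files were made with Agilent Feature Extraction 11.0.1.1 and hold spot intensity values with background subtracted and no scaling between arrays. The table the authors deposited holds log2 values, quantile-normalized per the study's methods, with no gene names, and served as an alternative. Here, spots marked as outliers were left out, spots of a probe were averaged on the log2 scale, and values were quantile-normalized over 12 arrays (16 for monosomes), so levels of monosome and other arrays are not on 1 scale.

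Probes called well above background throughout some group were tested with limma 3.58.1 in R 4.3.3 (lmFit, eBayes, group as the term, Benjamini-Hochberg over all 19806 or 20244 tested probes). Polysome and whole muscle were paired by mouse, as the design text states that each mouse gave every RNA (r of deviations within mice 0.06 to 0.48). Calls used an adjusted p under 0.05. Slide 1 and slide 2 each held arrays of both genotypes. The number of arrays limits precision. Probe positions are those of the files (mm9), and gene names those of the design. All 18 member probes are described. Pathway genes, 1 probe each, are named where they passed, otherwise the 4 with the largest absolute difference in a comparison, and each member's nearest gene by Pearson r. The members and lists were chosen with earlier results of these data known. Alternatives were normexp correction (offset 50), 75th percentile scaling, the authors' table, no filter or a stricter one, slide, within-slide fits, brightness, replicate block, the methods' t-test and leaving out each mouse. The fits were tested on simulated data. Plots used matplotlib 3.10.9.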

Additional observations from a re-analysis of the deposited data

How the results depend on the processing

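Counts of members with an adjusted p under 0.05 between genotypes stayed at 0 in whole muscle, polysomes and loading under every alternative run. In monosomes the count was 3 within slide 2, where WT replicate 2 alone stood against Het replicate 3, and ran from 0 to 5 with each mouse left out, 5 without WT replicate 1, where a lone WT array (replicate 2) is assumed to vary like the other groups. For polysome over whole muscle in WT, the count of 2 became 1 with no filter on dim probes or slide as a term, and 0 within slide 1, within slide 2, with brightness as a term and by the methods' t-test. It ran from 0 to 2 with each mouse left out (0 without WT replicate 3, and 1 without WT replicate 1 or any Het mouse). In Het the count of 0 became 1 with probes well above background on all arrays, and ran from 0 to 1 with each mouse left out, 1 without WT replicate 2.

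The replicate block gave 1 call for polysome over whole muscle in WT and the fit with no replicate block gave 0, against 2 with pairing by mouse. Neither changed another count. Equal numbers of WT and Het mice marked no shared origin, with correlations of their deviations from -0.33 to 0.46.

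Of 72 values of single probes, each under up to 19 settings, 1178 of 1241 alternatives kept their side of the threshold and any direction larger than the standard error, counting 68 sign changes of values within it. A further 20 lost and 14 gained a call, and 5 values of Camk4 moved by more than 1 SD, all towards 0. Directions turned in 24. With brightness as a term these were Camk1d (1.09) and Camk4 (-0.27) in whole muscle, Camk1 (-0.39), Camk2d at 4011 (-0.14) and Camk1d (-0.017) in loading, Camk2b at 1554 in the WT ratio (0.17), and Camk1 (-0.057) and Camk4 (0.15) in the Het ratio. Within slide 2, where loading and ratios compare different mice, they were Camk1d in whole muscle (0.0059), Camk2d at 4011 (-0.13), Camk1d (-1.06) and Camk2a at 919 (0.45) in loading, Camk2d at 2124 in monosomes (0.044), and Camk2d at 4011 (0.33) and Camk2g (0.18) in the WT ratio. Within slide 1 they were Camk2b at 1554 in polysomes (-0.0032), and Camk2d at 4011 (-0.39) and Camk2b at 3944 (-0.19) in monosomes. Normexp correction turned Camk1d in loading (-0.027). Leaving out WT replicate 2 turned 5 values, whose ranges with each mouse left out were, for Camk2d at 4011, -0.074 to 1.18 in loading, -0.55 to 6.13 in monosomes and -1.15 to 0.11 in the WT ratio, for Camk2d at 1941, -0.043 to 0.84 in the WT ratio, and for Camk2g, -0.85 to 0.088 in the WT ratio. The cause was not tested.

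Small groups, dim probes and the brightness of the arrays limit these results. Camk1, Camk1d and Camk2b at 1554 were not well above background on most Het whole-muscle arrays. The authors' table and normexp gave smaller loading differences for Camk4 and Camk2b at 1554. Genotype and brightness go together, without overlap, both in whole muscle and in the ratio of polysome to whole muscle on which loading rests.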
